A study of Rattus norvegicus with 12 samples.

Results

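The circadian clock and its direct output genes were followed in rat lung through 10 genes, taken by symbol from a table of 23096 genes: Dbp, Tef, Ciart, Nr1d1, Nr1d2, Per1, Per2, Per3, Arntl and Npas2. The genes were chosen by name with earlier values of these libraries known, namely their spread among control lungs and their difference between treated and control lungs. Both are therefore given for these 10 genes as description, without a p-value. Lung with bronchi came from 12 Sprague Dawley rats labelled male, 8 weeks old and 300 g, 6 per group. Control rats received sterile distilled water into the trachea, and treated rats received 2,3-butanedione (diacetyl, DA), a butter flavouring linked to bronchiolitis obliterans, at 125 mg/kg once daily for 7 days. Lungs were taken 24 h after the last dose, and the labels give no hour of the day.

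The clock is a loop of transcription in almost every cell. BMAL1 (encoded by Arntl) pairs with CLOCK or NPAS2, binds E-boxes and switches on the Per and Cry repressors, the nuclear receptors REV-ERBα and REV-ERBβ (Nr1d1, Nr1d2), CIART, and the D-box activators DBP and TEF. PER and CRY proteins then inhibit BMAL1, and the REV-ERB proteins repress Arntl and Npas2 through ROR elements (ROREs), so that Arntl and Npas2 messages peak at the opposite time of day to Nr1d1 and Dbp. The lung is rhythmic in rodents, in club cells of the airway as well as in other cell types, and its clock is known to respond to glucocorticoids.

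These elements are shown because the arms of the loop described below are named for the factors that bind them; 5 of the 10 genes held a match. RefSeq promoter windows (build GRCr8, from 250 bases before to 50 bases after a start) were found for 10 of the 10 genes, Arntl under its newer symbol Bmal1. Both strands were searched for the E-box CACGTG, the E′-box CACGTT, the D-box TTATGTAA or TTACGTAA, and the RORE core TAGGTCA or TGGGTCA. Each line below gives 30 bases on the strand of the gene, with the match in capitals.

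Ciart, E-box 93 bases before the start, chr2:186112322-186112351, minus strand: tgtatctagagtCACGTGttgccggcaaag
Ciart, E-box 35 bases before the start, chr2:186112264-186112293, minus strand: cgcagggggaggCACGTGcagagccgcacg
Ciart, E-box 21 bases before the start, chr2:186112250-186112279, minus strand: cgtgcagagccgCACGTGtctgggaggggg
Tef, E-box 198 bases before the start, chr7:115206617-115206646, plus strand: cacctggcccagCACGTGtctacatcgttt
Nr1d1, E-box 191 bases before the second of 2 listed starts, chr10:84229628-84229657, minus strand: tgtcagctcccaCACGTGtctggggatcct
Nr1d1, E′-box on the opposite strand 174 bases before the first start, chr10:84231969-84231998, minus strand: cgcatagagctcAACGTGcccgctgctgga
Per2, E′-box 62 bases before the start, chr9:99497038-99497067, minus strand: aacgcgcgcggtCACGTTttccactatgtg
Per2, D-box 192 bases before the start, chr9:99497167-99497196, minus strand: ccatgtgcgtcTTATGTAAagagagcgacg
Arntl, RORE 16 bases before the start, chr1:176766301-176766330, plus strand: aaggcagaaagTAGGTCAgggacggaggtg

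Ciart thus carried 3 E-boxes in its window, and Per2 an E′-box together with a D-box. The only RORE match among the 10 genes lay at Arntl. Of all 33469 promoter windows, 6.42% held the E-box, 4.83% the E′-box, 1.01% the D-box and 6.60% the RORE core. The windows of Dbp, Nr1d2, Per1, Per3 and Npas2 held none of these letters, which says nothing about elements elsewhere.

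Several libraries went against their label. The Y-linked genes Eif2s3y, Kdm5d and Uty had 0 counts in control replicates 3 to 6 and DA replicates 5 and 6. Control replicates 1 and 2 and DA replicates 1 to 4 carried 150 to 195 CPM (read counts scaled to the library total) of Y-linked reads. All 12 libraries are labelled male, so results are given for all of them and for the libraries with and without Y-linked reads (2 control and 4 DA against 4 control and 2 DA). Among DA libraries, those with and without Y-linked reads had similar means of Dbp (49.7 and 57.9 CPM) and Arntl (18.7 and 19.3 CPM), while control means differed (200.2 and 12.6 CPM for Dbp, 7.83 and 52.4 CPM for Arntl). Tef, Ciart and Per3 also had similar means in the DA sets. Other DA means lay further apart: Npas2 (18.5 and 30.9 CPM), Nr1d1 (45.0 and 79.8 CPM), Nr1d2 (124 and 167 CPM), Per1 (84.0 and 60.5 CPM) and Per2 (58.3 and 40.6 CPM). Depth was even, at 13723207 to 16271842 counts per library. The lung marker genes (Sftpc, Sftpb, Ager, Scgb1a1 and Pecam1, with no row for Cldn5) summed to 17337 to 25192 CPM in control and 7653 to 31078 CPM in DA. DA replicate 4 had the lowest lung sum and the highest sum of cardiac markers (622 CPM). In bulk tissue, fewer cells of a type and less RNA per cell cannot be told apart.

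The control lungs covered a far wider range of clock gene levels than the DA lungs. In 8 of the 10 genes, all but Tef and Per1, every DA library lay between the lowest and the highest control; 5.55% of the 14517 tested genes did so. The standard deviation (SD) of log2 CPM was larger in control than in DA for 9 of 10 genes, against 24.8% of tested genes. The median tested gene had an SD of 0.23 in control and 0.34 in DA. Both control values had served to choose the genes, so nothing is read from these shares.

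**Figure D1:**
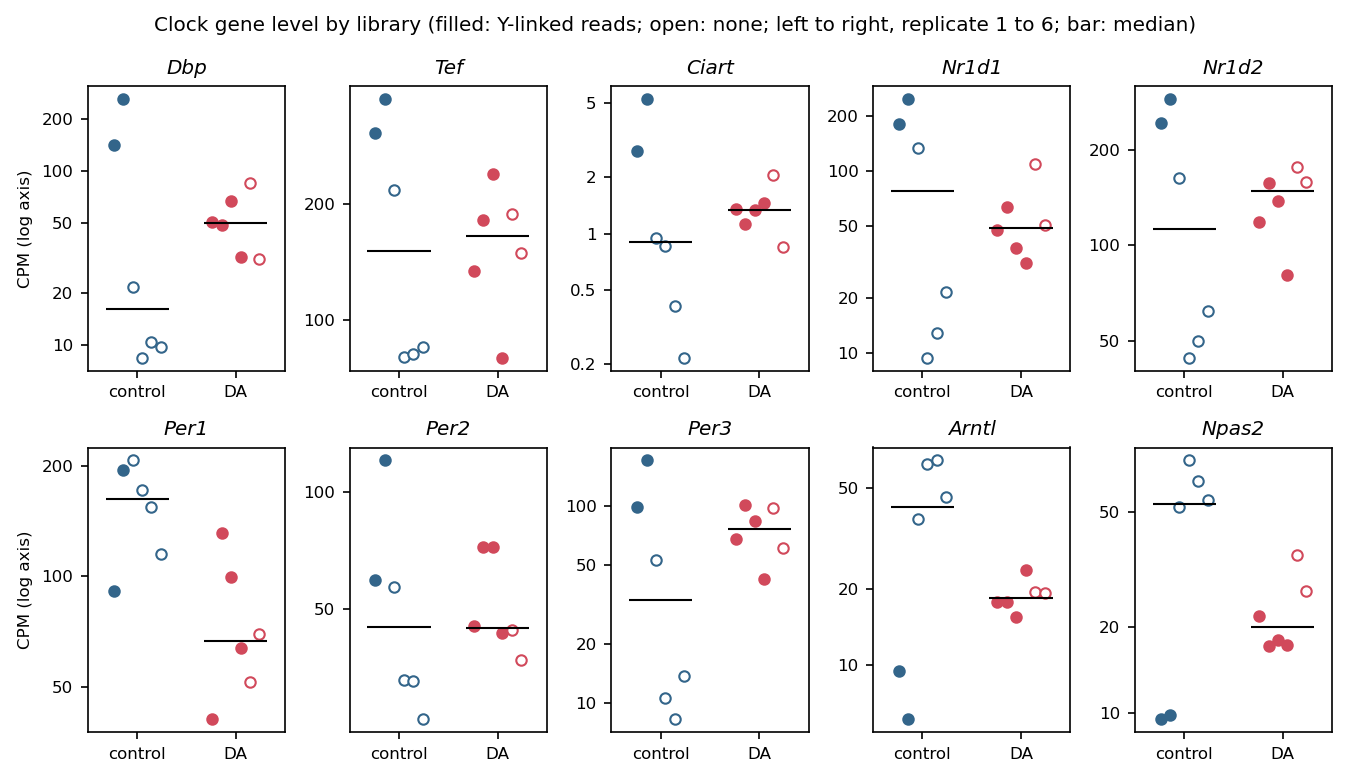
Level of each clock gene in each library, in CPM on a log axis, by group; filled points are libraries with Y-linked reads, open points those without, and the bar is the group median. Control points split towards both ends of the axis in most panels, with Dbp from 8.43 to 259 CPM, while DA points sit between, at 31.1 to 84.8 CPM.

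Among the D-box activators, Dbp varied far more between controls than Tef. Dbp (ENSRNOG00000021027), an albumin promoter-binding activator with one of the strongest rhythms in rodent tissues, stood at 141 and 259 CPM in control replicates 1 and 2. It was 21.6, 8.43, 10.5 and 9.76 CPM in control replicates 3 to 6. DA replicates 1 to 6 had 51.0, 48.9, 66.9, 32.1, 84.8 and 31.1 CPM. All DA libraries thus lay below the 2 controls with Y-linked reads and above the 4 without. The controls spanned 30.8-fold and the DA libraries 2.73-fold, and the control SD of Dbp was the 40th highest of 14517 tested genes. The log2 fold change over all libraries was -0.52 ± 0.79 (SE), from 75.1 ± 104 to 52.5 ± 20.7 CPM (SD, n = 6).

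Tef (ENSRNOG00000019383), which encodes the thyrotroph embryonic factor of the same family, covered a narrower range and was high in 3 controls rather than 2. Controls 1 to 3 had 307, 377 and 218 CPM, and controls 4 to 6 had 79.9, 81.2 and 84.8 CPM. The DA libraries ran from 79.4 CPM in replicate 4 to 241 CPM in replicate 3, with a median of 166 CPM. The lowest DA library fell just under the lowest control. Between the groups Tef differed by a log2 fold change of -0.24 ± 0.41 (SE). Per kilobase of gene, Tef was the most abundant of the 10 genes, at 23.1 ± 16.0 FPKM (CPM divided by gene length in kilobases, SD, n = 6) in control and 19.5 ± 6.33 FPKM in DA.

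The repressors of the Arntl arm were, like Tef, high in controls 1 to 3. Nr1d1 (ENSRNOG00000009329), the gene of REV-ERBα, stood at 182, 249 and 134 CPM in controls 1 to 3, and at 9.43, 12.9 and 21.7 CPM in controls 4 to 6. DA libraries ran from 31.4 to 109 CPM (median 48.9), all in the gap between those 2 sets of controls. Control replicate 3, which has no Y-linked reads, therefore sided with replicates 1 and 2 for Nr1d1, and lay closer to the low controls for Dbp. The log2 fold change of Nr1d1 was -0.84 ± 0.71 (SE). Nr1d1 shares 1061 bases with Thra in RefSeq's annotation, and the strand setting of the counting is not given in the sources used here, so reads of the shared stretch cannot be told apart. The same limit holds for Per2, which shares 17565 bases with a non-coding locus, and for Npas2, which shares 919 and 2328 bases with 2 such loci. Thra itself averaged 84.3 CPM in control and 59.0 CPM in DA.

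Nr1d2 (ENSRNOG00000046912), the gene of REV-ERBβ, kept the same order with less amplitude. Its controls were at 243, 289 and 163 CPM in replicates 1 to 3 and at 44.1, 49.9 and 61.8 CPM in replicates 4 to 6. DA libraries lay at 80.8 to 177 CPM (median 148), again with none as low as the lower 3 controls or as high as the upper 2. The log2 fold change was -0.04 ± 0.44 (SE), which with that error leaves changes in either direction within reach. Ciart (ENSRNOG00000042717), a repressor of CLOCK and BMAL1, was the least abundant gene, with 3 to 74 counts in control libraries and 12 to 32 in DA libraries. Controls 1 and 2 had the 2 highest levels of Ciart, 2.78 and 5.28 CPM, and DA libraries ran from 0.847 to 2.07 CPM.

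Of the Period genes, whose proteins inhibit BMAL1, Per3 and Per2 shared a split among controls that Per1 lacked. Per3 (ENSRNOG00000018413) had the split of Tef and the REV-ERB genes, with 98.9, 169 and 53.3 CPM in controls 1 to 3 and 10.6, 8.30 and 13.7 CPM in controls 4 to 6. Its DA libraries held 42.8 to 100.4 CPM (median 76.0), all above the lower 3 controls. Per3 had the one positive log2 fold change of the 10 genes, 0.36 ± 0.64 (SE). Per2 (ENSRNOG00000020254) had the same split over a narrower range. It stood at 59.6, 121 and 57.1 CPM in controls 1 to 3 and at 32.8, 32.7 and 26.0 CPM in controls 4 to 6 (median 45.0). Its DA libraries held 37.0 to 72.4 CPM (median 44.8), and its log2 fold change was -0.07 ± 0.34 (SE). The DA range of Per2 sat inside that of control.

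Per1 (ENSRNOG00000007387), the Period gene that glucocorticoids also induce, was the exception. Control levels spanned 2.27-fold, the narrowest control range of the 10 genes, at 91.4, 195, 207, 172, 154 and 115 CPM in replicates 1 to 6. DA replicates 1 to 6 had 40.7, 132, 99.9, 63.8, 51.5 and 69.5 CPM. The groups overlapped, since 2 DA libraries exceeded control replicate 1 and one of them control replicate 6. The level of Per1 went from 156 ± 45.3 to 76.2 ± 33.8 CPM (SD, n = 6), a log2 fold change of -1.03 ± 0.28 (SE). Its control SD of 0.46 was above the 0.23 of the median tested gene, at rank 2908 of 14517, and its DA SD was higher still (0.62). The glucocorticoid-induced list (Fkbp5, Tsc22d3, Per1 itself, Zbtb16, Sgk1 and Klf9) summed to 519 to 1441 CPM in control and 394 to 766 CPM in DA. Within it, Sgk1 alone reached higher in DA (70.6 to 241 CPM) than in control (65.9 to 168 CPM). Controls 3, 4 and 5 had the highest sums of that list, at 1441, 1341 and 1370 CPM. Control replicate 2, with Per1 at 195 CPM, had a sum of 730 CPM. The part of the list in the level of Per1 was not tested.

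Among controls, the positive arm ran opposite to Dbp. Control replicate 3 was on the high side here, as it was for Nr1d1 and Nr1d2. Arntl (ENSRNOG00000014448) was at 9.53 and 6.13 CPM in controls 1 and 2, the ones with the highest Dbp. It stood at 37.7, 61.9, 64.0 and 45.9 CPM in controls 3 to 6. DA libraries were tightly grouped, at 17.7, 17.7, 15.5, 23.8, 19.4 and 19.2 CPM in replicates 1 to 6. Every DA library lay in the gap, above the 2 lower controls and below the 4 higher ones. Controls of Arntl spanned 10.4-fold against 1.53-fold in DA, and the DA SD of 0.20 was only the 11347th highest of the tested genes. The log2 fold change was -0.99 ± 0.47 (SE), from 37.5 ± 25.0 to 18.9 ± 2.77 CPM (SD, n = 6).

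Npas2 (ENSRNOG00000013408), whose protein can take the place of CLOCK, repeated this pattern. Controls 1 and 2 held 9.53 and 9.91 CPM, and controls 3 to 6 held 51.7, 75.3, 64.1 and 55.0 CPM. DA libraries had 21.8, 17.1, 18.0, 17.2, 35.4 and 26.5 CPM in replicates 1 to 6, again within the gap. Npas2 had a log2 fold change of -0.97 ± 0.46 (SE). The 2 arms can be set against each other per length: the FPKM ratio of Dbp to Arntl was 37.4 and 107 in controls 1 and 2, 1.45 in control 3 and 0.345, 0.414 and 0.538 in controls 4 to 6. In DA libraries the ratio ran from 3.41 to 11.1.

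**Figure D2:**
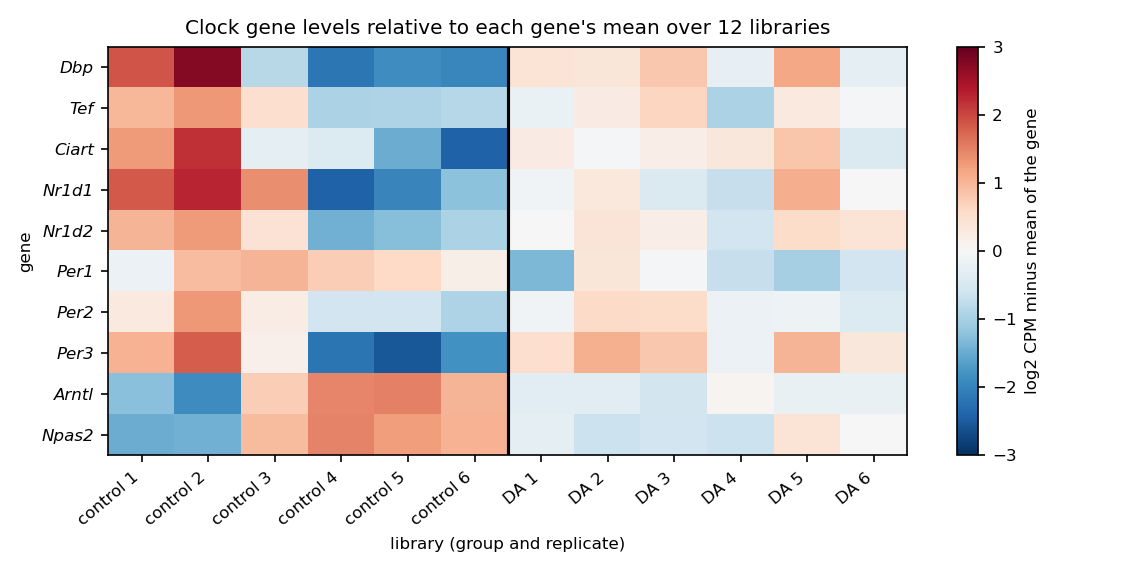
Log2 CPM of the 10 clock genes in the 12 libraries, each gene relative to its own mean; red is above and blue below that mean, and the vertical line separates control from DA. Controls 1 and 2 are red for Dbp (141 and 259 CPM) and blue for Arntl (9.53 and 6.13 CPM), controls 4 to 6 the reverse, and DA libraries lie nearer to white in both genes.

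Ranked by SD among controls, Dbp (2.14 on the log2 scale), Nr1d1 (2.09) and Per3 (1.82) came first. Ciart (1.48), Arntl (1.45), Npas2 (1.37), Nr1d2 (1.21), Tef (1.04), Per2 (0.81) and Per1 (0.46) followed. Of these, 8 were among the 385 genes of highest control SD out of 14517. Among DA libraries the SDs of the 10 genes lay between 0.20 (Arntl) and 0.63 (Nr1d1), and their ranks between 2936 and 11347.

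**Figure D3:**
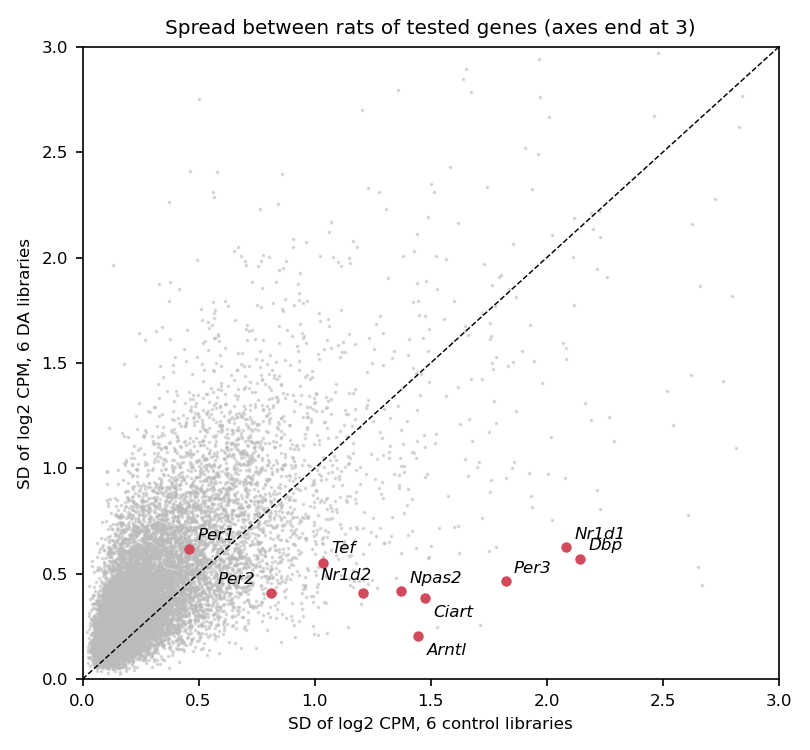
SD of log2 CPM among 6 control libraries (horizontal) and 6 DA libraries (vertical) for tested genes (grey) and the 10 clock genes (red); the dashed line marks equal SD, and 20 tested genes lie beyond the axes. Of the 10 genes, 9 lie below the line, with Dbp at 2.14 and 0.57 and Arntl at 1.45 and 0.20, and Per1 lies above it.

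Which direction a clock gene took in DA depended on the libraries compared and, for several genes, on the fit. With edgeR's quasi-likelihood test over all 12 libraries, 1 of the 10 genes, Per1, was called lower in DA (threshold of 0.05 on the adjusted p) and 0 were called higher; the genes were chosen on this contrast, and nothing is read from the count. Across all tested genes 16.0% were called, 7.51% as lower and 8.45% as higher. The groups overlapped in all 10 genes, while 6.04% of tested genes did not overlap. Without control replicate 3, 4 or 5 or DA replicate 1 or 6, 0 of the 10 genes were called; without control replicate 2 the one called was Arntl.

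Over the 24 alternative settings and subsets, the fold change of Dbp was below 0 in 17 and above in 7, that of Ciart in 19 and 5, of Nr1d2 in 13 and 11, and of Per2 in 17 and 7. With all 12 libraries kept, Dbp turned from -0.52 to 0.62 in limma on log2(FPKM + 0.5), which weighs libraries on the log scale, and to 0.83 with a replicate block. Without control replicate 2 it was 0.44. Arntl and Npas2 kept their sign in these fits at smaller size, -0.51 and -0.58 in limma and -0.61 and -0.64 with the block. With the presence of Y-linked reads as a term, Arntl was at -0.12 and Npas2 at -0.06. For Dbp the test statistic of that fit was near 0 and gave no SE, so only its sign is counted above.

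Within the libraries with Y-linked reads, the log2 fold change of Dbp was -2.01 ± 0.33 (SE), and within those without it was 2.2 ± 0.46. Arntl went the other way, at 1.25 ± 0.30 with and -1.45 ± 0.24 without Y-linked reads, as did Npas2, at 0.92 ± 0.22 and -1.0 ± 0.20. In each of these 3 genes every DA library lay on one side of every control in the first set and on the other side in the second. Of all tested genes, 0.558% had the order of Dbp and 0.289% that of Arntl and Npas2; the genes had been chosen on these levels, and nothing is read from the shares. The fold change also differed in sign between the 2 sets for Nr1d1 (-2.26 ± 0.29 and 0.84 ± 0.99), Nr1d2 (-1.11 ± 0.27 and 1.06 ± 0.49), Per3 (-0.86 ± 0.36 and 1.88 ± 0.68) and Ciart (-1.61 ± 0.40 and 1.24 ± 0.67). Tef (-1.11 ± 0.40 and 0.54 ± 0.42) and Per2 (-0.63 ± 0.35 and 0.12 ± 0.29) leaned the same way. The values of Nr1d1 and Per2 without Y-linked reads lay within 1 SE of 0. Per1 was lower in both sets, at -0.77 ± 0.49 and -1.43 ± 0.25. Control replicates 1 and 2 are the only controls with Y-linked reads, so whatever sets those rats apart cannot be told apart from the presence of those reads.

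**Figure D4:**
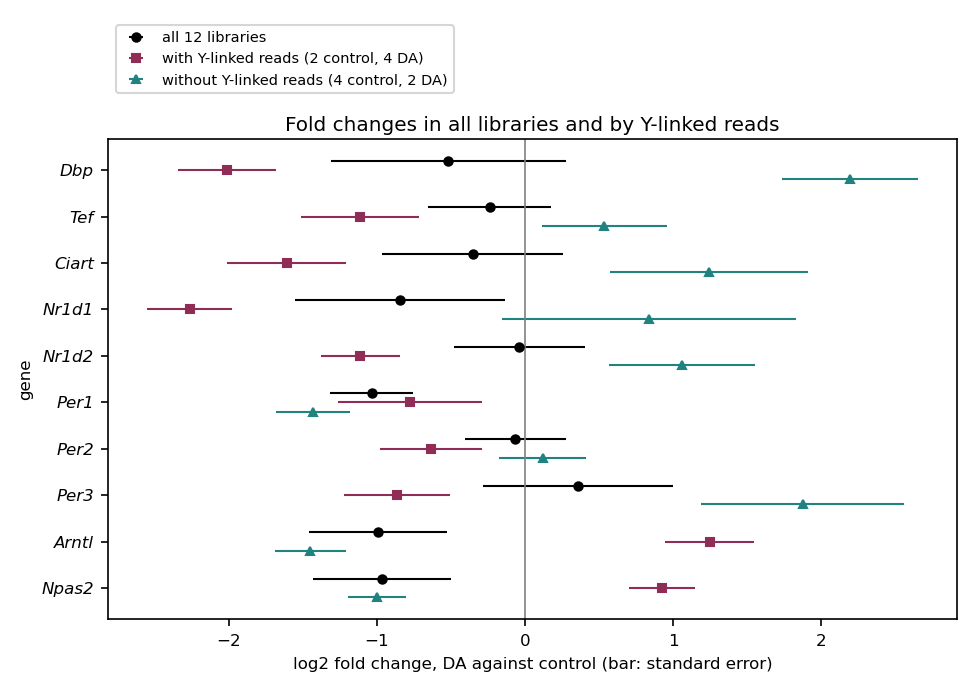
Log2 fold change of each clock gene, DA against control, with its standard error, for all 12 libraries, for those with Y-linked reads and for those without. The values for Dbp (-2.01 and 2.2) and Arntl (1.25 and -1.45) lie on opposite sides of 0 in the 2 subsets, and Per1 is below 0 in all 3.

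Clock genes outside the 10 were taken from a list of 37 in 3 roles, of which 35 passed the count filter. By edgeR's quasi-likelihood test, 4 rose and 5 fell in DA (25.7% of 35, against 16.0% of all tested genes), with a median log2 fold change of -0.06 beside 0.03 over all tested genes. The list was written with earlier results of these libraries known. Of all tested genes, 8.45% were called higher and 7.51% lower in DA, and nothing is read from the counts by role below.

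Among 11 tested core factors, 3 rose and 0 fell. Timeless, a replication fork protein related to the fly clock gene of that name, rose by 0.99 ± 0.20 (SE, adjusted p = 0.00980), from 8.78 to 14.1 CPM across controls to 14.5 to 31.3 CPM across DA libraries, which did not overlap. Proliferation markers (Mki67, Top2a, Cdk1 and Ccnb1) summed to 41.1 to 122 CPM in control and 81.4 to 641 CPM in DA, and their part in the rise of Timeless was not tested. DA replicate 4 had the highest of both, 641 CPM for the markers and 31.3 CPM for Timeless, and without that library Timeless rose by 0.87 ± 0.19 (adjusted p = 0.0105). Arntl2, a paralogue of Arntl, rose by 1.12 ± 0.32 (adjusted p = 0.0359) at a low level, with at most 1.23 CPM in control and at least 1.29 CPM in DA. Bhlhe40, an E-box-binding repressor, rose by 0.65 ± 0.19 (adjusted p = 0.0385). The groups overlapped, with 69.2 and 108 CPM in controls 1 and 2, 44.8 to 58.6 CPM in controls 3 to 6 and 79.7 to 121 CPM in DA. By the same test its change was 0.13 ± 0.24 (adjusted p = 0.881) within libraries with Y-linked reads and 1.05 ± 0.13 (adjusted p = 0.00914) within those without. Arntl2 was not called without the count filter (adjusted p = 0.0566), in limma on log2(FPKM + 0.1) (adjusted p = 0.0568), or without any one of 7 libraries (controls 1, 2, 4 and 5 and DA 1, 3 and 6; adjusted p = 0.0503 to 0.0804), and Bhlhe40 without any one of 9 (all but control 2 and DA 2 and 4; adjusted p = 0.0522 to 0.0852).

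The partner gene Clock ran from 78.9 to 145 CPM in control and 73.9 to 133 CPM in DA (log2 fold change -0.25 ± 0.17, adjusted p = 0.330). The cryptochrome genes, whose proteins act with PER, were not called: Cry1 was at -0.06 ± 0.23 (adjusted p = 0.886) and Cry2 at -0.06 ± 0.25 (adjusted p = 0.884). Cry2 was high in the same controls as Tef and the REV-ERB genes, with 69.0, 91.6 and 61.2 CPM in controls 1 to 3 and 36.2, 39.3 and 33.8 CPM in controls 4 to 6. Hlf, the third D-box activator beside Dbp and Tef, was at 53.9 and 63.3 CPM in controls 1 and 2 and at 15.2 to 27.5 CPM in the others (log2 fold change -0.06 ± 0.41, adjusted p = 0.936). Nfil3, a repressor that competes for D-boxes, ran opposite, at 10.3 and 6.70 CPM in controls 1 and 2 and 20.5 to 42.6 CPM in the others; DA libraries lay at 11.6 to 22.9 CPM (log2 fold change -0.54 ± 0.38, adjusted p = 0.342).

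Rora, which encodes the activator that competes with REV-ERB proteins for ROREs, narrowly missed the threshold, at -0.55 ± 0.18 (adjusted p = 0.0509). It was called lower without control 1, DA 2 or DA 6 (adjusted p = 0.0381 to 0.0418) and by DESeq2 (adjusted p = 0.0159). Bhlhe41 was not called (-0.24 ± 0.25, adjusted p = 0.528).

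Of 14 tested regulators of clock protein stability and activity, 1 rose and 2 fell. Hdac3, the deacetylase that REV-ERB recruits to its targets, rose by 0.45 ± 0.11 (adjusted p = 0.0184), from 38.9 to 57.0 CPM across controls to 57.5 to 72.0 CPM across DA libraries. Ncor1, the corepressor that holds Hdac3, fell by 0.43 ± 0.13 on the log2 scale (adjusted p = 0.0386), and Gsk3b, a kinase of several clock proteins, fell by 0.52 ± 0.15 (adjusted p = 0.0388). Gsk3b was no longer called without any one of controls 2 to 6 or DA 1 or 3 (adjusted p = 0.0626 to 0.0827), and Ncor1 without any one of controls 2 to 6 or DA 1, 3, 5 or 6 (adjusted p = 0.0633 to 0.0801). The Ncor1 call was lost in 17 of 24 alternatives, among them upper quartile scaling (adjusted p = 0.0535), library totals alone (adjusted p = 0.0586) and the 3 limma settings (adjusted p = 0.0541 to 0.0646).

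Of 10 genes widely described as clock outputs, 3 fell and 0 rose. Lpin1, a phosphatidate phosphatase, fell by 0.93 ± 0.16 on the log2 scale (adjusted p = 0.00497), from 16.8 to 31.6 CPM across controls to 11.0 to 16.3 CPM across DA libraries. Tsc22d3, also a glucocorticoid target, fell by 1.10 ± 0.24 (adjusted p = 0.0119), with 218 to 508 CPM in control and 118 to 211 CPM in DA. For both genes all 6 DA libraries were below all 6 controls. Por, the electron donor of P450 enzymes, fell by 0.71 ± 0.21 (adjusted p = 0.0371), and was no longer called without any one of controls 2 to 5 or DA 1, 5 or 6 (adjusted p = 0.0502 to 0.0816). With the presence of Y-linked reads as a term, 4 of the 9 calls remained: Timeless, Hdac3, Tsc22d3 and Lpin1.

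**Figure D5:**
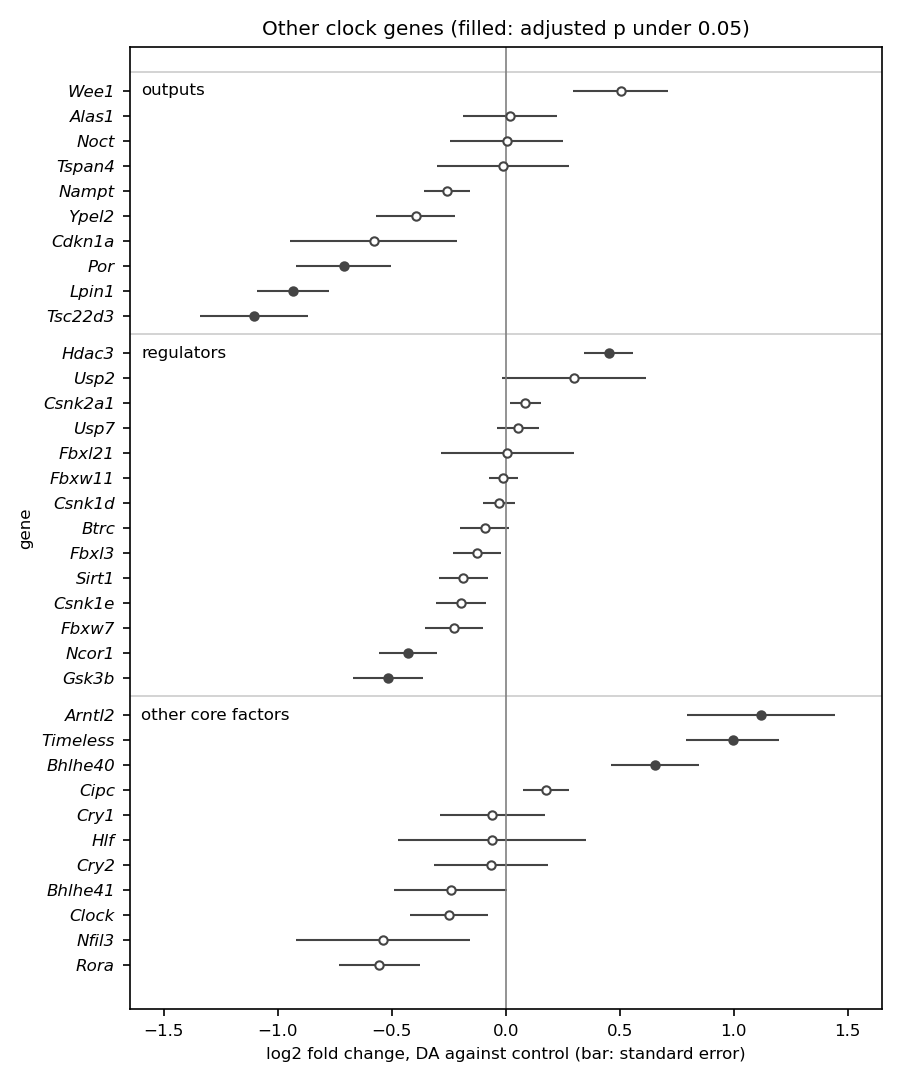
Log2 fold change, DA against control, of 35 clock genes outside the main 10, with the standard error, by role; filled points passed an adjusted p of 0.05. Arntl2 (1.12) and Timeless (0.99) lie farthest right, and Tsc22d3 (-1.10) and Lpin1 (-0.93) farthest left.

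The genes whose pattern most resembled 3 of the clock genes were ranked by Pearson correlation of log2 CPM over 12 libraries after each group mean was removed, among 11959 genes that leave out the 10 themselves. The libraries fall into separate clusters, so the correlation serves only to order genes. Outside the 10, closest to Dbp were Dcakd (0.90), Krt76 (0.90), Smarcd1 (0.893), Cry2 (0.880) and Atp9a (0.875), and most opposite were Nfil3 (-0.966), Nlrc4 (-0.947) and Mospd2 (-0.929). Closest to Arntl, again outside the 10, were Nlrc4 (0.964), Nfil3 (0.940), Ceacam4 (0.933), C1rl (0.918) and Slc16a3 (0.918), and most opposite were Dcakd (-0.905), Lbh (-0.903) and Clec3b (-0.897). Dcakd, Nfil3 and Nlrc4 thus stood at opposite ends of the Dbp and Arntl orders. Within DA libraries alone the likeness to Dbp was -0.15 for Smarcd1 and -0.18 for Nlrc4, and that to Arntl was 0.03 for C1rl, -0.01 for Slc16a3 and 0.27 for Lbh.

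Per1 had other company. The 5 genes most like Per1 were Trak1 (0.878), Rbsn (0.869), Med13l (0.868), Tshz1 (0.865) and Man2a2 (0.863), and the most opposite were Nutf2 (-0.898), Tmem176a (-0.871) and Gusb (-0.861). None of these 8 genes was among the few named for Dbp or Arntl out of the 11959 compared. Per1 itself correlated at -0.06 with Dbp and 0.05 with Arntl.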

How the data were processed

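HISAT2 2.2.1, HTSeq 2.0.2 and the rat build mRatBN7.2 are named, per the submitters' processing notes; the annotation release and the strand used in counting are not given in the sources used here. The deposited table holds raw read counts per Ensembl gene and FPKM values that the authors derived from them (relative deviation from count over length and total at most 5.33e-15). Without a stated strand, antisense and overlapping genes cannot be separated.

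Read counts went through edgeR 4.0.16 (R 4.3.3): filterByExpr (14517 genes), TMM, quasi-likelihood F test, group as the only term, two-sided, Benjamini-Hochberg over all tested genes, threshold 0.05. The SE of an edgeR log2 fold change is its absolute value over the square root of F, and so restates that test. CPM values are TMM-scaled, except the Y-linked sums and the floors, which use library totals; the SDs, likeness and ranks use log2 CPM with a prior count of 2. A library counted as having Y-linked reads at 1 CPM or more (Ddx3y, Eif2s3y, Kdm5d, Uty and Usp9y; Zfy1 had no row). Xist and Myh1 had no row either. Skeletal muscle markers (Ckm, Acta1, Myh4) summed to at most 3.09 CPM in control and 17.9 CPM in DA. Cardiac markers (Myh6, Actc1, Nppa, Myl7, Tnnt2, Ryr2) summed to 11.2 to 25.1 CPM in control and 32.5 to 622 CPM in DA. One further marker list and one clock gene are not reported here.

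Members, lists and motifs were chosen with earlier results of these data known. Named outside the 10 were called clock genes, 8 core factors whether called or not (Clock, Cry1, Cry2, Rora, Nfil3, Hlf, Bhlhe40, Bhlhe41), and the 5 most alike and 3 most opposite genes to Dbp, Arntl and Per1 with a unique symbol and a mean FPKM of at least 1. P-values measure the spread between libraries that the labels number as replicates. Within a group, pairs of libraries differed by 8.55 to 166 times the variance that counting alone gives. A count of 0 allows up to 3 counts, 0.184 to 0.219 CPM by library, for counting error only. Alternatives were DESeq2 1.42.0, limma 3.58.1 on log2(FPKM + 0.5), (FPKM + 0.1) and (FPKM + 1), no filter, upper quartile or no composition scaling, genes of mean FPKM 1 or more, a replicate block, terms or subsets by Y-linked reads, and leaving out each library. The pipeline was tested on simulated data.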

Additional observations from a re-analysis of the deposited data

Results flagged for a closer look

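The contrast of DA with control ran in opposite directions in libraries with and without Y-linked reads for 4 named genes, with every DA library on one side of every control in each subset. The log2 fold changes were -2.01 and 2.2 for Dbp, 1.25 and -1.45 for Arntl, 0.92 and -1.0 for Npas2 and -1.04 and 0.90 for Hlf, with and without such reads. The difference between the subsets was not tested. Of all tested genes, 0.558% had the order of Dbp and Hlf and 0.289% that of Arntl and Npas2. Dbp, Arntl and Npas2 had been chosen on these levels, and nothing is read from the number of genes. Cdkn1a, from the output list and singled out after its values were seen, had the order of Arntl: 23.6 and 23.96 CPM in the controls with Y-linked reads, 51.5 to 127 CPM in the other controls and 38.8 to 57.0 CPM in DA. The pattern rests on 2 controls in the first and 2 DA libraries in the second.

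Over 52 combinations of gene and group, 2 had a library far from the other 5, where about 1 in 20 is flagged by chance. Both were control replicate 1, the lowest control for Ncor1 (220 CPM) and for Lpin1 (16.8 CPM).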

How the results depend on the processing

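Over 24 alternatives the 10 members gave 240 log2 fold changes, of which 230 moved by less than the SD between replicates and 10 by more, all 10 in the subsets with or without Y-linked reads. That SD is each gene's own, and the genes were chosen with their wide spread known, so the 230 are no measure of stability. Dbp, from -0.52 to 0.83 with a replicate block, is counted among them. Per1 was below 0 in 24 of 24 alternatives, Arntl and Npas2 in 23 each, Nr1d1 and Tef in 22, Ciart in 19, Dbp and Per2 in 17, Nr1d2 in 13 and Per3 in 1. The number of members called, 1, was 0 with presence of Y-linked reads as a term (1 at an unadjusted p under 0.05). It was 0 within libraries with such reads (8 unadjusted, beside 1447 of all 15007 genes tested there). Within those without it was 4, beside 1696 of 14865 genes: Dbp was higher in DA, and Per1, Arntl and Npas2 lower. Leaving out single libraries gave 0 to 1. The members were chosen on this contrast, and nothing is read from these counts. The number of other clock genes called, 9, was 5 with a replicate block, 4 with the Y-linked term, 0 within libraries with Y-linked reads (4 unadjusted) and 4 to 10 leaving out single libraries. Of all genes, 2316 were called, and 3533 by DESeq2, 1434 with a replicate block and 1121 with the Y-linked term. In edgeR, 0 were called within libraries with Y-linked reads (1447 unadjusted) and 1696 within those without. Leaving out single libraries gave 1161 to 2991. The cause of these differences was not tested.

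The replicate numbers were not shown to pair rats: deviations of same-numbered libraries correlated over 0.1 in 3 of 6 pairs (-0.26 to 0.30), and 3 of 6 controls correlated best with their own number. Under the block the calls of Arntl2, Bhlhe40, Ncor1 and Por were lost. Ciart, with as few as 3 counts in a library, is limited by depth.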
